A study of Mus musculus with 16 samples.

Results

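Marrow monocytes were followed here as 2764 of 31191 CD45+ cells (8.86%) from 6 bone marrow (BM) libraries, within a series of 73176 retained cells in 16 libraries. A cell was kept when it had more than 200 and fewer than 6000 detected genes and at most 10% of its unique molecular identifiers (UMIs, counted molecules) on mitochondrial genes. Monocytes were chosen by raw counts: a cell was taken as one when the UMIs of F13a1, Ms4a6c, Ccr2 and Csf1r summed to at least 5, with at most 1 UMI of Siglech and at most 1 of Cd79a and Cd79b together. F13a1 encodes the A subunit of coagulation factor XIII, Ms4a6c a membrane-spanning protein of myeloid cells, Ccr2 the chemokine receptor that lets monocytes leave the marrow, and Csf1r the receptor for the macrophage growth factor CSF-1. Siglech, of plasmacytoid dendritic cells, and Cd79a and Cd79b, of the B cell receptor, served to keep those cells out. The levels of these 7 genes and the number of cells that met the rule are therefore given as a description, and no test of them is read as a result. At the edge of the rule, 65 members had a sum of exactly 5 and 121 cells outside it had a sum of 4. A further 219 cells reached the sum but had too many UMIs of Siglech, Cd79a or Cd79b.

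Monocytes arise in the marrow from dividing progenitors that pass through a stage rich in the serine proteases of azurophil granules. Classical monocytes then carry high Ly6C and CCR2, enter the blood and can become macrophages or dendritic cell–like cells in tissues, and a nonclassical branch with low Ly6C patrols vessels. Some marrow monocytes are neutrophil-like and others carry major histocompatibility complex (MHC) class II. CBP and P300 are related histone acetyltransferases that act as coactivators, and their bromodomain binds acetylated lysine.

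The series asked what the CBP/P300 bromodomain inhibitor IACS-70654 did in mice that carried 2208L, a transplantable mammary tumor of BALB/c origin that lacks Trp53 and serves as a model of triple-negative breast cancer. The 6 libraries comprised 2 from non–tumor-bearing BALB/c mice labelled ctrl (WT below, untreated), 2 from 2208L tumor–bearing mice given vehicle and 2 from 2208L tumor–bearing mice given IACS-70654 by mouth on an intermittent schedule. The tumor-bearing hosts were wild-type BALB/c mice, young adults at implantation, so no group carried a transgene, and the sort kept live CD45+ Ter119- cells. Both drug libraries came from tumor-bearing mice, so an effect of the drug without tumor is not analysed here. The series record and the study differ on the days of treatment before marrow was taken, so no number is given. By the study's methods every sample held cells of 3 mice, whereas the series record gives 3 pooled mice for a treatment group; neither says outright whether the 2 libraries of a group came from different animals. The p-values below measure the spread between these libraries, which may be technical. By the methods the study used female mice only; the age of the non–tumor-bearing animals was not given in the sources used here.

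The members had a median of 8962 to 12009 UMIs per library, against 4113 to 6596.5 over all kept cells, and were deepest with IACS-70654. The 6 libraries carried different sample tags in 1 multiplexed run and shared 0 cell barcodes with each other. Of 20 further monocyte markers, 18 or 19 were higher in CPM (UMIs of a gene per 1000000 UMIs of the cell set) in the members than in neutrophils of the same library, the exceptions being Cybb in all 6 libraries and Cd14 in 5, and 19 or 20 were higher than in B cells with Ighd, the exception being Ly86 with IACS-70654. Without Lyz2, which neutrophils also carried in abundance, 19 markers summed to 8031 to 8316 CPM in the members of WT and vehicle libraries and to 4900 and 4799 CPM with IACS-70654, against 2285 to 2606 CPM in neutrophils; the margin was thus smallest with treatment. Markers of macrophages (52.1 to 69.3 CPM over 12 genes), eosinophils (2.6 to 3.5 CPM over 5 genes) and erythroid cells (1.4 to 7.1 CPM over 7 genes) were low. The 12 neutrophil markers summed to 14755 and 18330 CPM in the WT members, 27014 and 21011 CPM in the vehicle members and 31358 and 38986 CPM in the IACS-70654 members, against 30181 to 65568 CPM in B cells with Ighd and 307040 to 375521 CPM in neutrophils; they were lowest in WT and highest with IACS-70654, and their part in the results below was not tested beyond leaving out members with neutrophil granule genes. The 8 markers of plasmacytoid dendritic cells summed to 254 to 303 CPM, against 92.5 to 101.3 CPM in neutrophils and 371 to 722 CPM in B cells with Ighd. Sets of members carried genes of dendritic cells (shares given with MHC class II below), of basophils and of T and natural killer (NK) cells. Members with at least 3 UMIs of basophil genes made up 2.78% and 3.37% of the WT members, 1.97% and 2.45% of the vehicle members and 0.690% and 1.21% of the IACS-70654 members. For T and NK cell genes the shares were 4.56% and 3.86% in WT, 1.64% and 1.53% in vehicle libraries and 0.517% and 0.674% in IACS-70654 libraries. At most 0.455% of B cells with Ighd in any library reached either cut. The basophil and the T and NK sets were largest in WT and smallest with IACS-70654.

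Monocytes made up a smaller share of CD45+ cells with vehicle than in WT, and a larger share with IACS-70654 than with vehicle. The share was 8.63% (395 of 4579 cells) and 9.44% (415 of 4394) in the WT libraries, 5.97% (305 of 5112) and 5.37% (327 of 6087) in the vehicle libraries, and 11.9% (580 of 4865) and 12.1% (742 of 6154) in the IACS-70654 libraries. The groups did not overlap. As a ratio of group means, vehicle stood at 0.627 ± 0.0615 of WT, IACS-70654 at 2.11 ± 0.158 times vehicle and IACS-70654 at 1.33 ± 0.0856 times WT (SD propagated from 2 libraries per group).

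These are shares, so a change in the other cells moves them too: B-lineage cells numbered 688 and 698 in the WT libraries, 165 and 179 in the vehicle libraries and 59 and 112 in the IACS-70654 libraries. Depth also differed: 3075 of 4579 and 3003 of 4394 kept cells had at least 3000 UMIs in WT, 3872 of 5112 and 4646 of 6087 with vehicle and 4142 of 4865 and 5208 of 6154 with IACS-70654. Among these cells alone, with the rule at full depth, vehicle stood at 0.553 of WT, IACS-70654 at 1.93 times vehicle and IACS-70654 at 1.07 times WT. When these cells were also thinned to 3000 UMIs and at least 3 UMIs of the 4 genes were required, the ratios were 0.569, 1.82 and 1.04. Leaving B-lineage, T and NK cells out of the denominator gave 1.04 for IACS-70654 to WT and 0.544 for vehicle to WT, and 1.16 and 0.548 when Cd3d and Nkg7, which neutrophils also carried, were not used to find T and NK cells. The lower share with vehicle thus held in each of these denominators, thinned or not, which all held neutrophils. Neutrophils were 2968 of 4579 and 2751 of 4394 kept cells in WT and 4164 of 5112 and 5000 of 6087 with vehicle. With IACS-70654 they were 3545 of 4865 and 4419 of 6154. Over the kept cells that were not neutrophils, the members' share was thus lower in WT than with vehicle and highest with IACS-70654. The ratio of IACS-70654 to WT was near 1 once cells under 3000 UMIs, which were more frequent in WT, were left out, before any thinning; what those cells were was not tested. With 2 libraries against 2, an exact permutation test cannot give a p below 0.333.

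**Figure D1:**
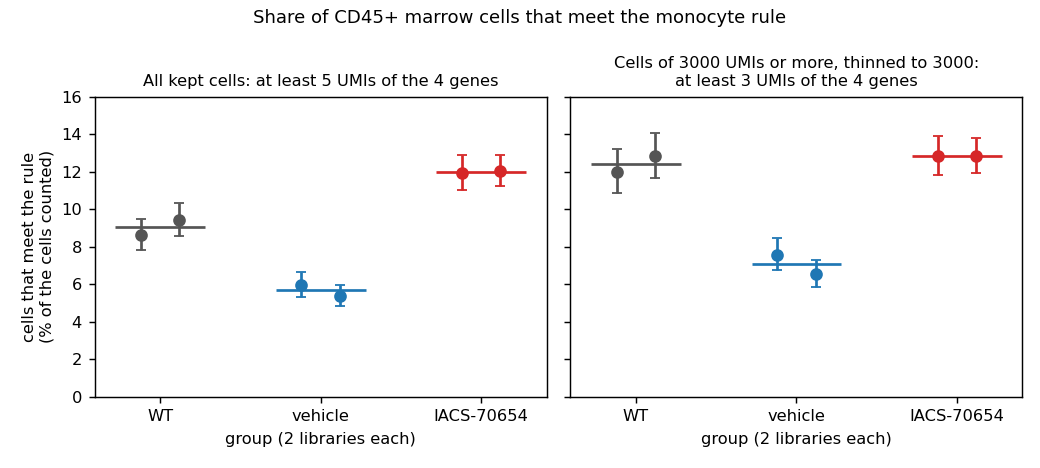
Share of CD45+ marrow cells that met the monocyte rule, in percent of the cells counted, in each of 2 libraries of WT, vehicle and IACS-70654 (points, with exact 95% binomial intervals that cover counting error only; lines, group means). Over all kept cells (left) the vehicle libraries lie lowest and the IACS-70654 libraries highest. Over cells of at least 3000 UMIs, thinned to 3000 and with a lower cut of 3 UMIs (right), the WT and IACS-70654 means, 12.4% and 12.8%, lie close together above vehicle at 7.07%.

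The 4 genes of the rule did not move alike. Ccr2 was at 813 and 814 CPM in WT, 890 and 856 CPM with vehicle and 553 and 521 CPM with IACS-70654. F13a1 was at 1712 and 1634 CPM in WT, 1656 and 1706 CPM with vehicle and 1236 and 1152 CPM with IACS-70654. Ms4a6c lay between 1058 and 1299 CPM and Csf1r between 114 and 142 CPM in all 6 libraries. Ccr2 and F13a1 were thus lowest in both IACS-70654 libraries, Ms4a6c was highest there, and the groups lay close together for Csf1r.

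UMIs were summed over the members of each library, and genes were compared with edgeR's quasi-likelihood test, called at a Benjamini-Hochberg adjusted p under 0.01 and a log2 difference over 0.5 in size. With IACS-70654 against vehicle, 250 of 11604 genes rose (2.15%) and 441 fell (3.80%). These shares over all genes stand beside each list count of this comparison below. The lists were chosen with earlier results of these data known, so their counts are a description. Granule protease genes of immature myeloid cells and Lpl were among the rises. MHC class II genes, Ly6c2, genes of coagulation and adhesion, and the apolipoprotein genes Apoc2 and Apoe were among the falls. T and NK cell markers fell in 7 of 10 tested and basophil and mast cell markers in 5 of 6, beside the smaller shares of members with those genes. By DESeq2 117 rose and 317 fell, and 433 of the 691 genes called by edgeR were called in the same direction. Without cells with cycle genes (at least 3 UMIs of 10 such genes) 141 rose and 305 fell, 295 of the 691 calls being shared, and without cells with nonclassical genes 148 rose. The nonclassical cut was at least 2 UMIs of Ace, Treml4, Cd300e, Eno3, Spn and Adgre4 together at full depth. It left 236 of 395 members in WT library 1 and 466 of 742 in IACS-70654 library 2, against 340 and 671 without Spn. Calls lost under it were thus not read as resting on nonclassical monocytes. The rises numbered 138 without vehicle library 1 and 160 without vehicle library 2, and the falls 304 to 476 over the libraries left out. In these sums, fewer cells of a kind and less RNA per cell cannot be told apart.

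Azurophil granule genes rose in the summed members of treated mice. The rule did not exclude precursors, since c-Kit+ cells also met it (below). Whether members rich in these transcripts were monocytes or earlier myeloid precursors was not tested. Elane, which encodes neutrophil elastase, was at 858 and 821 CPM in WT, 842 and 865 CPM with vehicle and 2991 and 2936 CPM with IACS-70654. Its log2 difference from vehicle was 1.82 ± 0.03 (SE derived from the test's F statistic, as for every gene below, adjusted p = 9.7e-18). Mpo, myeloperoxidase, was at 887 and 1186 CPM with vehicle and 2125 and 2136 CPM with IACS-70654 (log2 1.07 ± 0.07). Both WT libraries lay within or near the vehicle range for these genes, at 962 and 994 CPM for Mpo, so the treated libraries stood apart from both other groups. Ms4a3, a membrane protein of granulocyte–monocyte progenitors, rose from 137 and 150 CPM to 410 and 400 CPM (log2 1.52 ± 0.05). Prtn3, proteinase 3, rose from 1899 and 1994 CPM to 3495 and 3556 CPM (log2 0.88 ± 0.03), and the serine protease gene Prss57 by 1.40 ± 0.12 on the log2 scale. In all, 6 of 11 azurophil genes tested rose and 1 fell, with a median log2 difference of 0.83 beside 0.003 over all genes. Elane differed by 2.10 in members without cycling genes and by 1.87 in cycling members alone, whereas Prss57 differed by 0.35 without cycling cells and did not pass there (adjusted p = 0.806).

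The size of this rise differed between ways of choosing monocytes. Without members that had 10 or more UMIs of Mpo, Elane, Prtn3 and Ctsg at full depth, Ms4a3 differed by 0.12 and did not pass. With at least 10 UMIs of the 4 rule genes the log2 difference was 1.46 for Elane and 0.98 for Ms4a3. With the rule applied after thinning, which left out cells under 3000 UMIs and lowered both the depth and the cut (to 3 UMIs), it was 1.20 for Elane and 0.55 for Ms4a3, and Prtn3, at 0.34, no longer passed. Free RNA was measured beside it: B cells with Ighd, which should lack these transcripts, carried 0.409 UMIs of Elane per cell in WT, 0.410 with vehicle and 3.10 with IACS-70654, against 9.61, 10.7 and 41.0 per member, or 13.2 to 26.0 times the B cell level. The members' UMIs thus exceeded that background in every group, and the background itself was highest with IACS-70654; its part in the rise was not tested.

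Azurophil transcripts lay in part of the members. Members with fewer than 4000 UMIs were left out here, which kept 378 of 395 and 406 of 415 in WT, 291 of 305 and 314 of 327 with vehicle and 575 of 580 and 734 of 742 with IACS-70654, and each was thinned to 4000 UMIs. Cells with at least 10 UMIs of Mpo, Elane, Prtn3 and Ctsg together, called azurophil-high, made up 19.3% and 18.2% of these in WT, 25.8% and 27.4% in the vehicle libraries and 38.1% and 37.9% in the IACS-70654 libraries. Most of these cells also had at least 3 UMIs of cycle genes, called cycling here by that score alone, which 3.45% to 32.4% of B cells with Ighd also reached after thinning to 2000 UMIs: 89.0% and 81.1% in WT, 92.0% and 79.1% in vehicle libraries and 71.2% and 77% in IACS-70654 libraries. Among cycling members the share was 67.8% and 66.9% with IACS-70654 and 47.9% and 50% with vehicle. Among non-cycling members it was 18.3% and 15.5% with IACS-70654 and 4.08% and 10.1% with vehicle. Azurophil-high cells were thus more frequent with treatment among members above and below that cut. At full depth 0% to 4.29% of B cells with Ighd reached 10 UMIs, against 30.6% to 54.0% of members, at median depths of 3097 to 4150 and 8962 to 12009 UMIs.

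**Figure D2:**
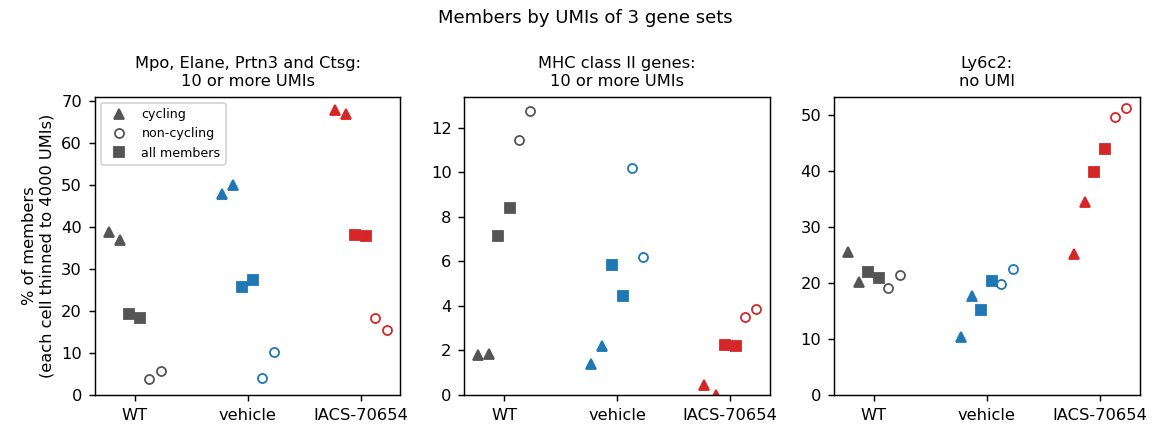
Percent of members of at least 4000 UMIs, each thinned to 4000, with at least 10 UMIs of Mpo, Elane, Prtn3 and Ctsg (left), with at least 10 UMIs of MHC class II genes (middle) and with no Ly6c2 UMI (right), in each of 2 libraries of WT, vehicle and IACS-70654. Squares are all members, triangles cycling and open circles non-cycling members. Azurophil-high cells are most frequent with IACS-70654, and so are cells without Ly6c2 over all and over non-cycling members. Among cycling members, cells without Ly6c2 overlap between IACS-70654 and WT. Class II–high cells, more frequent among non-cycling members, are least frequent with IACS-70654.

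Genes that mark classical monocytes fell with IACS-70654. Ly6c2, which encodes the Ly6C surface protein, was at 672 and 690 CPM in WT, 830 and 793 CPM with vehicle and 375 and 361 CPM with IACS-70654 (log2 -1.12 ± 0.04; adjusted p = 1.31e-12). S100a4, a calcium-binding protein of motile cells, was at 1394 and 1342 CPM in WT, 1147 and 1142 CPM with vehicle and 482 and 484 CPM with IACS-70654 (log2 -1.22 ± 0.03). Fn1, fibronectin, was at 999 and 1024 CPM with vehicle and 451 and 457 CPM with IACS-70654 (log2 -1.13 ± 0.04). For each of these genes the IACS-70654 libraries also lay below both WT libraries. Of 20 monocyte markers tested, 11 fell and 1, the endotoxin coreceptor gene Cd14, rose (log2 0.55 ± 0.11), with a median of -0.53. Lgals3, galectin-3, fell by 0.85 and Cx3cr1, the fractalkine receptor, by 0.57, although Cx3cr1 differed by 0.02 without azurophil-high cells (here by UMIs at full depth) by -0.42 without vehicle library 1, by -0.47 with at least 10 UMIs of the rule genes, by -0.39 with the rule applied after thinning and by -0.36 without cycling cells, none of them past the thresholds. Lyz2, lysozyme, stayed at 11698 to 13476 CPM in the 6 libraries and did not pass (log2 -0.09 ± 0.03).

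The fall of Ly6c2 from vehicle was seen in cycling and in non-cycling members. Among the members thinned to 4000 UMIs, those with no Ly6c2 UMI made up 22% and 20.9% in WT, 15.1% and 20.4% in the vehicle libraries and 39.8% and 43.9% in the IACS-70654 libraries. Among non-cycling members the share was 49.6% and 51.2% with IACS-70654, against 19.7% and 22.5% with vehicle. Among cycling members it was 25.2% and 34.4% with IACS-70654, 10.4% and 17.6% with vehicle and 25.6% and 20.2% in WT. Treated and WT libraries thus overlapped among cycling members. Without members that had 10 or more azurophil UMIs at full depth Ly6c2 differed by -1.71, so its fall was larger in the remaining cells, whereas 7 rather than 11 of the 20 markers fell there. B cells with Ighd held 0.121 to 0.218 UMIs of Ly6c2 per cell, 41.9 to 54.7 times fewer than the members.

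Most MHC class II genes fell. These genes encode the receptors that present antigen to CD4+ T cells, their chaperones and peptide loaders, and their transcription is switched on by CIITA, a coactivator that recruits CBP and P300 to a shared set of promoter boxes. H2-Aa, the alpha chain of I-A, was at 190 and 244 CPM in WT, 202 and 115 CPM with vehicle and 51.1 and 49.0 CPM with IACS-70654 (log2 -1.63 ± 0.18; adjusted p = 1.72e-06). H2-Eb1, the beta chain of I-E, was at 92.6 and 128 CPM in WT, 110 and 55.2 CPM with vehicle and 20.6 and 23.1 CPM with IACS-70654 (log2 -1.87 ± 0.23). Cd74, the invariant chain that guides class II molecules, was at 336 and 473 CPM in WT, 357 and 226 CPM with vehicle and 83.0 and 87.3 CPM with IACS-70654 (log2 -1.74 ± 0.16). The vehicle libraries differed from each other more than the treated ones did for all 3 genes. H2-Ab1, the beta chain of I-A, fell by 1.69 and H2-DMb1, a subunit of the peptide exchanger DM, by 1.73. Ciita was at 12.1 and 12.8 CPM in WT, 11.9 and 9.65 CPM with vehicle and 4.78 and 4.35 CPM with IACS-70654 (log2 -1.22 ± 0.23; adjusted p = 0.000812), a low level at which the call was lost without vehicle library 1 (log2 -1.05, adjusted p = 0.0284) or IACS-70654 library 2 (log2 -1.15, adjusted p = 0.0102), without azurophil-high cells (log2 -0.72, adjusted p = 0.0422) and without cells with nonclassical genes other than Spn (log2 -0.83, adjusted p = 0.0554).

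Of the 10 class II genes listed, 9 were tested, of which 6 fell and 1 rose, with a median of -1.64. The gene called as rising was H2-Oa, a subunit of the DM inhibitor DO, from 2.85 and 4.21 CPM to 7.55 and 9.38 CPM (log2 1.29 ± 0.29); this call was lost by DESeq2 (adjusted p = 0.0574), without either vehicle library, without IACS-70654 library 2, with equal numbers of cells per library, without cycling cells, in cycling cells alone and without azurophil-high cells. H2-DMa (log2 -0.08 ± 0.07) and H2-DMb2 (log2 -0.46 ± 0.17) did not pass, and H2-Ob, at 0.503 to 1.68 CPM, was too low to test. Class II transcripts sat in a minority of cells: 83.5% to 90.1% of the members thinned to 4000 UMIs had none, and cells with at least 10 made up 7.14% and 8.37% in WT, 5.84% and 4.46% in the vehicle libraries and 2.26% and 2.18% in the IACS-70654 libraries. The 5 cells richest in H2-Aa held 46.5% and 63.1% of its UMIs in the vehicle libraries. Members with genes of dendritic cells made up 11.4% and 14.7% in WT, 9.18% and 10.1% in vehicle libraries and 15.2% and 15.6% in IACS-70654 libraries. Of B cells with Ighd, 3.61% and 2.73% reached the same cut in WT, 5.71% and 4.65% in the vehicle libraries and 10.3% and 8.57% in the IACS-70654 libraries, at unmatched depth, so no change in such cells was read from these shares. The 8 markers of conventional dendritic cells summed to 79.0 and 85.9 CPM in the WT members, 55.3 and 55.2 CPM in the vehicle members and 59.4 and 53.6 CPM in the IACS-70654 members. Without the cells that carried genes of basophils, T or NK cells, dendritic cells or macrophages, 6 of 9 class II genes still fell (median -2.17).

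Class II promoters are known for an inverted CCAAT element near the start, the Y box, which binds NF-Y. The 120 bases before the start are shown for 3 genes that fell and for H2-Oa, which edgeR called higher, from RefSeq on GRCm38.p6, the C57BL/6J reference, whereas the mice were BALB/c and may carry other alleles. Each is written on the strand of its gene, with CCAAT or ATTGG (the same pentamer on the other strand) in capitals.
H2-Eb1 (chr17:34305747-34305866, plus strand): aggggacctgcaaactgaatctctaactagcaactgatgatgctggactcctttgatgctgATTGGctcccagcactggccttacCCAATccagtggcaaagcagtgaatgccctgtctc
H2-Aa (chr17:34287824-34287943, minus strand): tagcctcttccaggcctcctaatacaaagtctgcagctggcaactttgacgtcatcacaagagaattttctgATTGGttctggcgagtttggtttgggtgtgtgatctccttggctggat
H2-DMb1 (chr17:34153071-34153190, plus strand): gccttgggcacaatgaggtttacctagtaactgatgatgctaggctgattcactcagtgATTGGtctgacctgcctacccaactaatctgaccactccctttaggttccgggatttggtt
H2-Oa (chr17:34092259-34092378, plus strand): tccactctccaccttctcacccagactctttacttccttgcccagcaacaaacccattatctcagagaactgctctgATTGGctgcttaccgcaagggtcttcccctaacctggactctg
The first base of the pentamer stood 48 bases before the start in H2-Aa, 59 and 35 in H2-Eb1, 61 in H2-DMb1 and 43 in H2-Oa. Of the 7 listed class II genes with a promoter in the table, 6 held the pentamer on either strand in these 120 bases, as did 21.29% of all 32851 promoters in windows of the same length; H2-DMa did not. The pentamer was thus present in H2-Oa as well as in the 3 genes shown that fell. H2-Ab1, Cd74 and Ciita were not matched in the table.

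**Figure D3:**
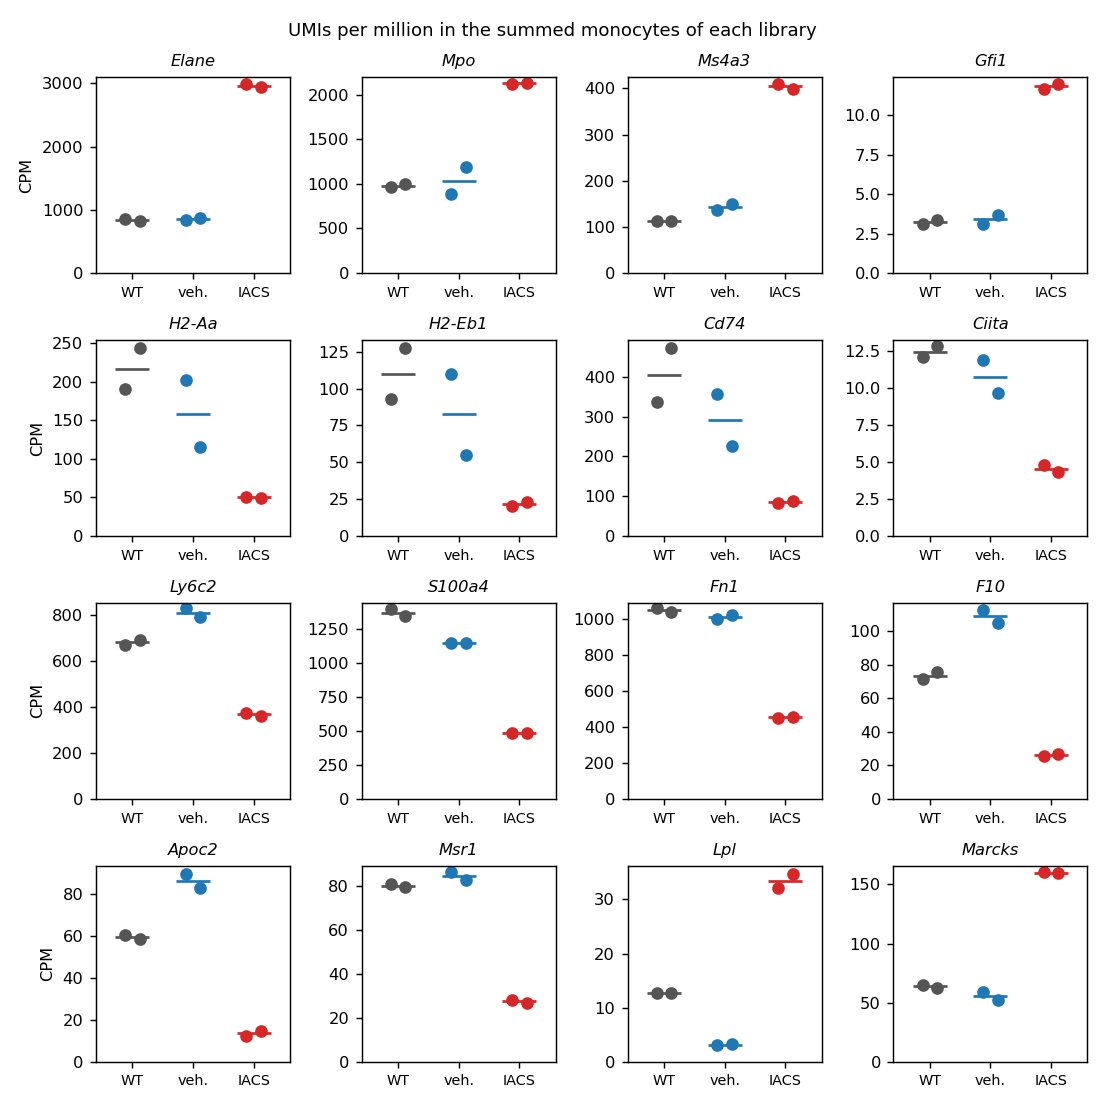
Level of 16 genes in the summed monocytes of each library, in CPM (y axes start at 0), for WT, vehicle (veh.) and IACS-70654 (IACS); points are libraries and lines group means. Elane, Mpo, Ms4a3 and Gfi1 are highest with IACS-70654, the 4 class II genes, Ly6c2, S100a4, Fn1, F10, Apoc2 and Msr1 are lowest there, Lpl is lowest with vehicle, and Marcks is highest with IACS-70654.

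Genes of coagulation, matrix and complement fell in 7 of 20 tested by edgeR (5 by DESeq2), beside 3.80% of all genes by edgeR. None rose by either tool, 1 being higher at an unadjusted p under 0.05. F10, coagulation factor X, was at 71.5 and 75.4 CPM in WT, 112 and 105 CPM with vehicle and 25.8 and 26.5 CPM with IACS-70654 (log2 -2.03 ± 0.09; adjusted p = 5.87e-12). C3, the central complement protein, fell by 0.81 ± 0.05 and Serpinb2, plasminogen activator inhibitor 2, by 1.29 ± 0.31 on the log2 scale. The list's median was -0.49, and F10 was the member that was higher with vehicle than in WT and fell below WT with IACS-70654.

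Genes of trafficking and adhesion fell in 5 of 26 tested by edgeR (4 by DESeq2), beside 3.80% of all genes by edgeR. None rose by either tool, 2 being higher at an unadjusted p under 0.05. Itgb7, the beta 7 integrin chain, fell by 1.23 ± 0.07, the endothelial adhesion gene Pecam1 by 0.78 ± 0.11 (not called without cells with nonclassical genes, at -0.49, or without cycling cells, at -0.52) and S1pr4, a receptor for sphingosine-1-phosphate, by 0.55 ± 0.13. Itga1, the collagen-binding alpha 1 integrin, which was among the 10 largest falls but not in the list, was at 122 and 135 CPM in WT, 142 and 132 CPM with vehicle and 49.1 and 36.7 CPM with IACS-70654 (log2 -1.67 ± 0.10). WT and vehicle overlapped for this gene and the treated libraries lay below both. Lgals1, galectin-1, went from 1592 and 1525 CPM with vehicle to 717 and 776 CPM (log2 -1.04 ± 0.04).

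Pattern recognition and Fc receptor genes moved both ways, with 7 of 41 falling and 3 rising, beside 3.80% and 2.15% of all genes. Msr1, a macrophage scavenger receptor, fell from 86.4 and 82.9 CPM to 28.4 and 26.9 CPM (log2 -1.59 ± 0.09). The endosomal sensors Tlr7 and Tlr13 fell by 1.30 ± 0.20 and 1.29 ± 0.13, the former not passing without vehicle library 1 (-1.07, adjusted p = 0.0109) or in cycling members alone (-1.42, adjusted p = 0.0344). Clec4n, which encodes Dectin-2, rose from 2.08 and 3.96 CPM to 15.0 and 11.9 CPM (log2 2.15 ± 0.28), from a low level, and did not pass in cycling members alone (1.53, adjusted p = 0.078). Cd33, a sialic acid–binding receptor of the list of suppressor cell genes, rose by 0.88 ± 0.11.

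Apoc2 and Trf were among the 10 largest falls. Apoc2, an apolipoprotein that activates lipoprotein lipase, was at 60.2 and 58.8 CPM in WT, 89.5 and 82.9 CPM with vehicle and 12.3 and 14.7 CPM with IACS-70654 (log2 -2.63 ± 0.11; adjusted p = 3.37e-12). Lpl, lipoprotein lipase itself, went the other way, at 12.8 and 12.6 CPM in WT, 3.11 and 3.22 CPM with vehicle and 32.1 and 34.6 CPM with IACS-70654 (log2 3.42 ± 0.19). Trf, transferrin, fell from 118 and 98.2 CPM to 29.8 and 23.7 CPM (log2 -2.00 ± 0.11). Of 18 lipid and macrophage maturation genes tested, 2 rose and 5 fell (median 0.05), beside 2.15% and 3.80% of all genes. The rises were Lpl and Trem2, a lipid-sensing receptor (log2 0.80 ± 0.11). Apoe, apolipoprotein E, was among the falls (log2 -1.35 ± 0.09), but at -0.23 did not pass in cycling members alone. Alas1, the first enzyme of heme synthesis, rose by 1.60 ± 0.07, but differed by 0.63 without cycling cells (adjusted p = 0.0228) and by 0.50 without azurophil-high cells (adjusted p = 0.041), neither past the threshold.

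Among 52 myeloid transcription factors tested, 5 rose and 6 fell, beside 2.15% and 3.80% of all genes. Gfi1, a repressor that favours the granulocyte over the monocyte fate, was at 3.09 and 3.37 CPM in WT, 3.11 and 3.71 CPM with vehicle and 11.7 and 12 CPM with IACS-70654 (log2 1.81 ± 0.25; adjusted p = 3.43e-05), but the call was lost when at least 10 UMIs of the rule genes were required (log2 1.07) or the rule was applied after thinning (log2 0.86), and without cells with nonclassical genes (log2 1.22, adjusted p = 0.027). Egr1, an immediate early factor, fell by 0.76 ± 0.11, and Klf4, a factor of classical monocytes, by 0.57 ± 0.06. Klf4 was not called without cycling cells (-0.21), azurophil-high cells (-0.19) or cells with nonclassical genes (-0.49). Nor was it called with at least 10 UMIs of the rule genes (-0.49) or with the rule applied after thinning (-0.45). Of 6 progenitor markers, 2 rose, Myb by 0.52 ± 0.11 and Kit, the stem cell factor receptor, by 1.11 ± 0.25, and 4 did not pass; against WT none of the 6 rose by edgeR or DESeq2 (2 higher at an unadjusted p under 0.05) and 1 fell by edgeR. Of the other genes with the largest rises, Marcks, an actin-binding substrate of protein kinase C, went from 58.9 and 52.7 CPM to 160 and 159 CPM (log2 1.54 ± 0.07) and Chn2, a Rac GTPase-activating protein, from 32.2 and 39.3 CPM to 121 and 124 CPM (log2 1.80 ± 0.09). Ldlrad4, which encodes an inhibitor of TGF-beta signalling, rose by 1.11 ± 0.08 after a fall of 0.65 from WT to vehicle that did not pass without vehicle library 2 (-0.59, adjusted p = 0.0111), without cycling cells, in cycling members alone or without azurophil-high cells.

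Interferon-stimulated genes were split. Of 66 tested, 10 rose and 4 fell, beside 2.15% and 3.80% of all genes, with a median of 0.12. Oasl2, an oligoadenylate synthetase-like protein, rose from 15.8 and 15.3 CPM to 37.5 and 30.6 CPM (log2 1.14 ± 0.16). Ifi27, from 30.9 and 33.9 CPM to 92.1 and 94.5 CPM, was the interferon-inducible gene among the 10 largest rises (log2 1.55 ± 0.10). Rsad2, the antiviral enzyme viperin, and Ifit1 rose by 1.44 ± 0.29 and 1.28 ± 0.21 from levels at which they had fallen with vehicle, and Rsad2 lost its call by DESeq2 (adjusted p = 0.0195), without either vehicle library or IACS-70654 library 2, without cells with nonclassical genes and with equal numbers of cells per library (1.22). Ifit1 lost its call without vehicle library 2 (1.17, adjusted p = 0.0101) and without cycling cells (0.75, adjusted p = 0.0799). Of 24 chemokines and cytokines tested, Ccl24, an eosinophil attractant (log2 1.34 ± 0.17), and Il15, a growth factor of NK cells (log2 0.74 ± 0.10), rose. Ccl5 fell from 36.3 and 62.1 CPM to 3.14 and 2.51 CPM (log2 -4.11 ± 0.24), beside the smaller share of members with T and NK cell genes, cells that are known to carry Ccl5; the part of those cells was not tested.

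Many groups held few or no calls. Over all 11604 genes, 3423 had an unadjusted p under 0.05 in either direction, and the counts at that p below stand beside this. By edgeR and by DESeq2, none of 27 genes for CBP, P300 and other acetylation enzymes passed in either direction, 6 being lower and 0 higher at an unadjusted p under 0.05, with Crebbp at 0.12 ± 0.06 and Ep300 at -0.08 ± 0.06 on the log2 scale. Neither tool called any of 28 S-phase genes (8 lower and 0 higher at an unadjusted p under 0.05), 29 genes of oxidative phosphorylation (2 lower and 4 higher), 21 of ribosome biogenesis (8 higher) or 7 of the NADPH oxidase (4 lower). Of 30 G2/M genes 2 fell, beside 3.80% of all genes, and 25 were lower at an unadjusted p under 0.05, with a median of -0.27. Of 24 MHC class I genes 1 fell, beside 3.80% of all genes. This was H2-Q7 (log2 -0.75 ± 0.12), which did not pass without cycling cells (-0.38), cells with nonclassical genes (-0.40) or azurophil-high cells (-0.36). After thinning to 2000 UMIs, cycling cells made up 33.5% and 28.2% of members in WT, 36.5% and 35.6% in the vehicle libraries and 29.3% and 32.2% in the IACS-70654 libraries. The ratio of IACS-70654 to vehicle was 0.853 thinned and 0.990 unthinned. B cells with Ighd reached 3.45% to 32.4% in the same libraries, so no difference in cycling was read from this score.

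**Figure D4:**
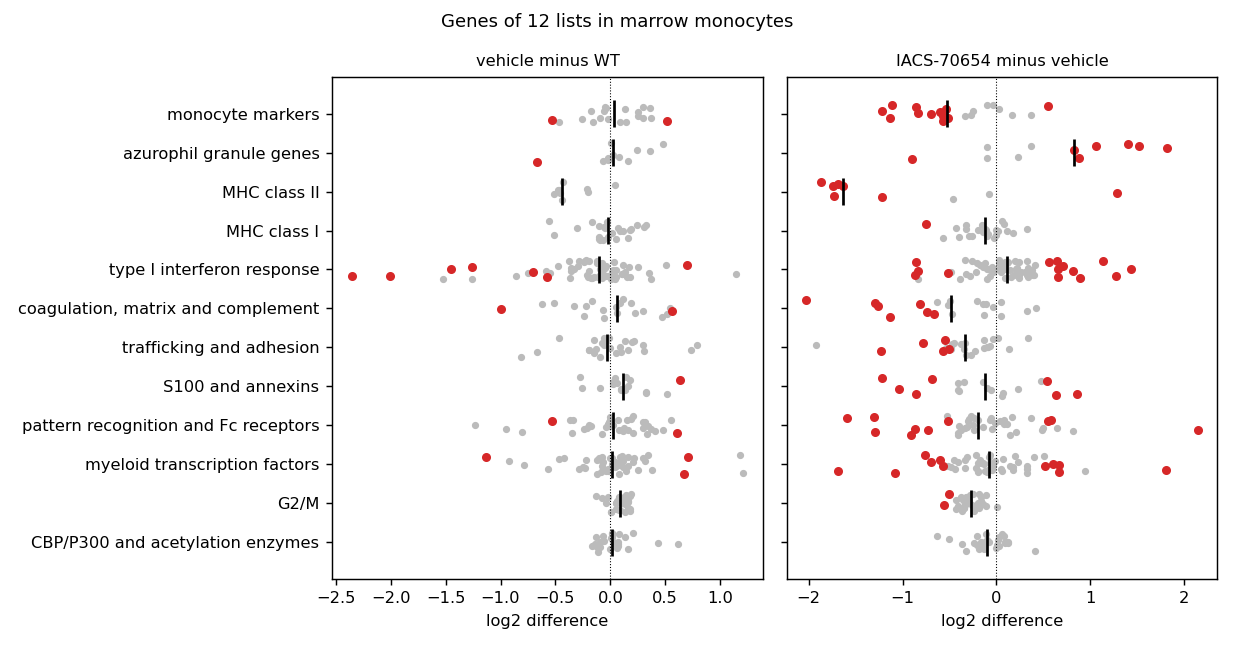
Log2 difference of each tested gene in 12 gene lists, vehicle minus WT (left) and IACS-70654 minus vehicle (right), in the summed monocytes. Red points are called genes, grey points are not, and black bars are list medians; with IACS-70654 the azurophil list lies to the right (median 0.83) and MHC class II (-1.64) and monocyte markers (-0.53) to the left, whereas between vehicle and WT the medians lie nearer 0.

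Some large differences rested on few cells or on genes near the level of free RNA. Gzma (log2 -4.03 ± 0.42), of cytotoxic lymphocytes, and Prss34 and Mcpt8 (log2 -2.62 ± 0.28 and -2.25 ± 0.22), of basophils, were among the 10 largest falls. The 5 richest cells held 95% and 75.8% of the Prss34 UMIs in WT and 98.3% and 96.2% with vehicle. Without members that carried genes of basophils, T or NK cells, dendritic cells or macrophages, Mcpt8 stood at 0.88 (adjusted p = 0.074), and it was the 1 basophil gene still tested; Gzma was not called with at least 10 UMIs of the rule genes or with the rule applied after thinning, and neither Mcpt8 nor Prss34 without cells with nonclassical genes, nor Mcpt8 without cycling cells. The stefin A and cystatin-domain genes rose in 6 of 7 tested, Stfa3 by 1.57 ± 0.10 and Cstdc5 by 1.67 ± 0.12, but Cstdc5 was at 0.817 to 1.60 times the UMIs per cell of B cells with Ighd, which is the level of free RNA, and without members that had 1% or more of their UMIs in neutrophil granule genes 1 of the 7 fell and the others did not pass (median 0.09). Lcn2, at 0.885 to 1.37 times the B cell level, and Camp, at 0.793 to 1.62 times, also lay near it, and no change in monocytes was read from these genes.

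Between vehicle and WT, 60 of 11604 genes rose (0.517%) and 71 fell (0.612%), fewer than with IACS-70654 against vehicle. Camk2d, a calcium/calmodulin-dependent kinase, was at 94.2 and 92.7 CPM in WT and 220 and 198 CPM with vehicle (log2 1.16 ± 0.07; adjusted p = 2.48e-08). Tex14 was at 99.7 and 117 CPM in WT and 223 and 224 CPM with vehicle (log2 1.04 ± 0.08), and Arhgap24, a Rac GTPase-activating protein, at 86.7 and 77.7 CPM and 161 and 168 CPM (log2 1.00 ± 0.07). With IACS-70654 Tex14 was at 110 and 126 CPM and Camk2d at 180 and 184 CPM. Fdps, of isoprenoid synthesis, rose by 0.88 ± 0.10, and with IACS-70654 it fell by 0.51 ± 0.08 from vehicle; the rise did not pass without cycling cells (0.99, adjusted p = 0.112) or without azurophil-high cells (0.70, adjusted p = 0.0258). The stress genes Ppp1r15a and Gadd45b rose by 0.75 ± 0.10 and 0.74 ± 0.11, and F10 by 0.56 ± 0.08. Without vehicle library 1 Gadd45b (0.65, adjusted p = 0.0179) and F10 (0.50, adjusted p = 0.0114) did not pass, nor did F10 with at least 10 UMIs of the rule genes (0.48) or without cycling cells (0.65), nor Gadd45b in cycling members alone (0.61). By DESeq2 34 genes rose and 38 fell, and without cycling cells 31 and 26. Of the libraries left out, the counts were smallest without vehicle library 1 (22 rises and 34 falls) and without vehicle library 2 (39 and 27), and without WT library 1 the rises numbered 39.

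Interferon-stimulated genes were among the falls from WT to vehicle. Tsc22d3, which encodes the glucocorticoid-induced protein GILZ, was at 125 and 116 CPM in WT and 64.6 and 64.3 CPM with vehicle (log2 -0.91 ± 0.08; adjusted p = 1.16e-06). Fkbp5, an immunophilin, and Nfkbia, the inhibitor of NF-kappaB, fell by 0.59 ± 0.10 and 0.61 ± 0.08, although Fkbp5 no longer passed without WT library 1, without either vehicle library, without cells with nonclassical genes or in cycling members alone. Of 66 interferon genes tested, 6 fell and 1 rose, beside 0.612% and 0.517% of all genes. Rsad2 was at 15.0 and 12.4 CPM in WT and 2.59 and 2.72 CPM with vehicle (log2 -2.36 ± 0.28). Ifit1 and Cxcl10, a chemokine for T cells, fell by 1.45 ± 0.22 and 2.00 ± 0.39. Cxcl10 lost its call by DESeq2 (adjusted p = 0.0106), without WT library 1, without either vehicle library and without cells with nonclassical genes other than Spn, and Ifit1 without vehicle library 2 (-1.34, adjusted p = 0.0156), without cells with neutrophil granule genes (-1.09) and in cycling members alone (-0.68). MHC class II genes did not pass by edgeR or DESeq2 (0 of 9, median -0.44, Cd74 adjusted p = 0.0806). At an unadjusted p under 0.05, 6 were lower, beside 1869 of all 11604 genes in either direction. Elane (log2 0.02 ± 0.03) and Fn1 (log2 -0.05 ± 0.04) did not pass either, and Prtn3, at 0.48 ± 0.03, stayed just under the fold threshold. T and NK cell genes fell in 6 of 10 tested, beside the smaller share of members with those genes. Of the 10 largest falls, Gzma, Nkg7, Ms4a4b and AW112010 were not called without the members that carried genes of other cell types or could not be tested there.

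Against WT, IACS-70654 gave 254 rises (2.19%) and 501 falls (4.32%), with 145 rises by DESeq2 and 138 rises and 314 falls without cycling cells. This comparison shares libraries with the other 2. MHC class II genes fell in 7 of 9 tested (median -1.68), monocyte markers in 10 of 20 (3 rose) and azurophil genes rose in 6 of 11 (1 fell). Ly6c2 was 0.86 lower and Elane 1.85 higher than in WT on the log2 scale, and Lpl, low with vehicle, was 1.42 above WT.

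The response of monocytes was compared with that of neutrophils of the same libraries, 22847 cells. In these, S100a8, S100a9, Ngp, Camp, Ltf, Retnlg, Lcn2 and Wfdc21 together held at least 5% of UMIs. They also had at most 1 UMI of the rule genes, so those genes were low there by choice. The test was an interaction of cell class and group with the library as a block. For IACS-70654 against vehicle, the difference of responses was higher in monocytes for 485 of 11604 genes (4.18%) and lower for 908 (7.82%). Elane, Mpo, Ms4a3 and Prtn3 were not among them: the difference of responses was 0.02 ± 0.13 for Elane and 0.32 ± 0.09 for Ms4a3. The fall of class II genes was larger in monocytes, with a difference of responses of -1.45 ± 0.21 for H2-Ab1 and -1.41 ± 0.17 for Cd74. The difference was also below 0 for F10 (-2.33 ± 0.13), Apoc2 (-2.43 ± 0.13) and Itgb7 (-2.13 ± 0.15). For F10 and Itgb7 it was larger in size than the fall in monocytes, so neutrophils held no matching fall. How much of the neutrophils' UMIs of class II genes, F10, Apoc2, Itgb7 and Lpl was free RNA was not tested. A difference of responses for these genes may therefore reflect what neutrophils could show. Lpl rose more in monocytes, with a difference of 2.74 ± 0.28, and Chn2 rose less, with -1.77 ± 0.20. For Marcks the difference, 2.03 ± 0.08, was larger than its rise in monocytes, so neutrophils held no matching rise. Ly6c2, with a difference of 0.35 ± 0.07, did not pass the fold threshold. The counts with IACS-70654 were 321 and 600 without IACS-70654 library 2 and the lower count 486 without vehicle library 2. For vehicle against WT the difference was higher in monocytes for 103 genes (0.888%) and lower for 181 (1.56%), and 24 of 66 interferon genes were lower in it, 24 of 62 having risen in neutrophils, where 670 of 13676 genes rose (4.90%) and 514 fell (3.76%), against 1 of 66 in monocytes. The higher count was 61 without WT library 1; the higher and lower counts were 48 and 94 without WT library 2 and 36 and 118 without vehicle library 2.

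The same rule was applied to the 6 libraries of lineage-negative c-Kit+ marrow cells, sorted separately, where 393 to 1451 cells per library met it; the mice may be the same, and each of these libraries shared 1 to 12 cell barcodes with each CD45+ library. With IACS-70654 against vehicle 422 of 12213 genes rose (3.46%) and 394 fell (3.23%), and with vehicle against WT 112 rose (0.917%) and 54 fell (0.442%). Without c-Kit+ vehicle library 1 there were 245 rises with IACS-70654 and 58 rises and 30 falls with vehicle, and without c-Kit+ vehicle library 2 there were 74 rises and 28 falls with vehicle. Of 9 class II genes tested there 5 fell, among them Cd74 (-4.19 ± 0.38) and H2-Eb1 (-4.42 ± 0.66), and 1 rose, H2-Oa (1.31 ± 0.18), whereas H2-Ab1 differed by 0.49 ± 0.19 and did not pass. Ly6c2 (-1.42 ± 0.05), S100a4 (-1.51 ± 0.11) and F10 (-1.80 ± 0.15) fell, and Lpl (3.22 ± 0.51) and Marcks (1.83 ± 0.12) rose, as in CD45+ monocytes. The azurophil genes did not: Elane differed by 0.32 ± 0.02, Mpo by 0.11 ± 0.02 and Ms4a3 by 0.04 ± 0.03, and of 11 azurophil genes 3 fell and the others did not pass. Fn1 rose by 0.99 ± 0.17 where it had fallen in CD45+ monocytes. Differences between these sorts were not tested.

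**Figure D5:**
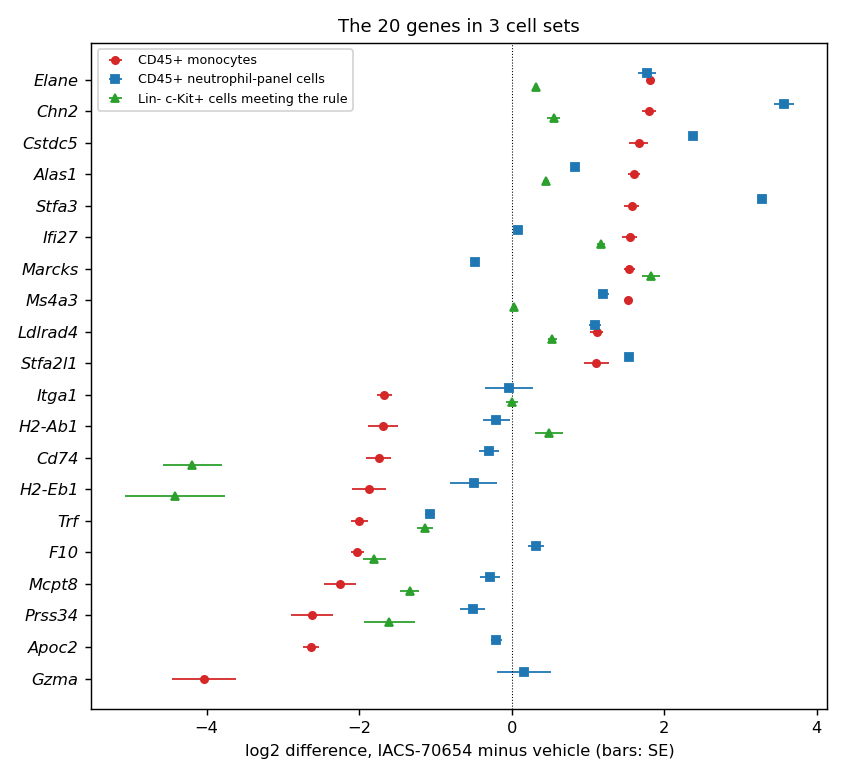
Log2 difference between IACS-70654 and vehicle, with SE, of the 10 largest rises and 10 largest falls in CD45+ monocytes (red circles), beside neutrophils of the same libraries (blue squares) and c-Kit+ cells that met the same rule (green triangles); a missing symbol is a gene not tested there. Elane and Ms4a3 lie together in monocytes and neutrophils but nearer 0 in c-Kit+ cells, whereas F10 and Apoc2 are far below 0 in monocytes and near 0 in neutrophils.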

How the data were processed

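Single cells of 6 CD45+ Ter119- BM libraries, multiplexed with sample tags, were profiled by 3′ droplet RNA sequencing. The authors demultiplexed and counted the reads with Cell Ranger (7.2.0 for the BM libraries per the file headers) against mm10 and list Seurat among the tools; the deposited matrices hold raw UMI counts per gene and cell, not normalized. Library totals were 27816638 to 54510172 UMIs, and the members of a library summed to 3853747 to 10345396 UMIs.

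The cells and gene lists were chosen with earlier results of these data known, and lists reused from that work support nothing by themselves. UMIs were summed per library and cell set and fitted over all 6 libraries with edgeR 4.0.16 (quasi-likelihood, TMM, genes passing its expression filter, no covariate) in R 4.3.3, with limma 3.58.1 installed. Calls needed an adjusted p under 0.01 and a log2 difference over 0.5. The SE of a log2 difference was its size divided by the square root of the F statistic of the quasi-likelihood test. It was not computed from the 2 libraries of a group alone. DESeq2 1.42.0, other filters, cell rules and libraries left out were alternatives. The scripts were tested on simulated data. Shares, thinning and exact (Clopper-Pearson) 95% intervals used Python 3.11.15, numpy 2.4.6 and scipy 1.17.1; intervals cover counting error only. Doublets were not called again: members with 1% or more neutrophil granule UMIs (Ngp, Camp, Ltf and Retnlg), or in the top 5% of UMIs, were left out as alternatives. The 20 monocyte markers and the azurophil, class II and other lists were the same in every fit, but not independent of earlier results of these data. Genes were named by rule: the 10 largest called rises and falls with a mean of at least 50 CPM and no overlap, without the rule genes, and up to 4 per list, called ones first. The rule genes stayed in the fits, so the counts over all genes included them. Where a list held a gene of the rule, its counts and median included that gene. Of the 7 genes of the rule, 6 were tested, and 1 was among the falls with IACS-70654 against vehicle, and 1 against WT. As these genes chose the cells, nothing was read from that. C3, Cd14, Lyz2, Lcn2, Ciita, H2-Oa, H2-DMa and H2-DMb2 were added for the IACS-70654 comparison after their values were seen. A few genes that the rule names are not reported here. Neutrophils had at least 5% of UMIs in S100a8, S100a9, Ngp, Camp, Ltf, Retnlg, Lcn2 and Wfdc21 together. They also had at most 1 UMI of the rule genes and met the same limits on Siglech, Cd79a and Cd79b. B cells with Ighd had at least 1 UMI of Ighd and 3 of Cd79a and Cd79b. Cycling cells had at least 3 UMIs of the cycle genes. The libraries of a group differed beyond sampling noise (chi-square per degree of freedom 1.77 to 2.19). Tumor libraries were not used in a comparison.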

Additional observations from a re-analysis of the deposited data

Results flagged for a closer look

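The following genes responded differently in monocytes and in neutrophils of the same libraries, by the interaction test in edgeR with the library as a block. Values are the monocyte response minus the neutrophil response on the log2 scale. The part of free RNA in the neutrophils' UMIs of these genes was not tested.

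For IACS-70654 against vehicle, Marcks (2.03), Ifi27 (1.47) and Alas1 (0.77) were higher in monocytes. The response was lower in monocytes for the class II genes H2-Ab1 (-1.45), Cd74 (-1.41) and H2-Eb1 (-1.33), for Apoc2 (-2.43), F10 (-2.33), Trf (-0.92), Itga1 (-1.63) and Chn2 (-1.77), and for the stefin-family genes Stfa3 (-1.71) and Cstdc5 (-0.73), which stood near the level of free RNA in the members. It was also lower for Gzma (-4.15), Mcpt8 (-1.98) and Prss34 (-2.11), genes of lymphocytes and basophils that a few members held.

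For vehicle against WT, Arhgap24 (0.52) and Tex14 (0.55) were higher in monocytes, and Epsti1, an interferon-inducible gene (-0.70), and Gzma (-2.91) were lower.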

How the results depend on the processing

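The replicate numbers in the labels were checked as a pairing. Deviations of same-numbered libraries correlated at -0.05 for WT and vehicle, 0.06 for WT and IACS-70654 and -0.14 for vehicle and IACS-70654 over 3445 genes, so the samples shared only a number; with the replicate block the counts of rises and falls were 62 and 73 for vehicle against WT, 240 and 435 for IACS-70654 against vehicle and 250 and 493 for IACS-70654 against WT. With the numbers of the vehicle libraries crossed, added after seeing the data, they were 79 and 86, 275 and 473, and 280 and 537.

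Counts below are rises or falls of genes called in monocytes, and the cause of a change was not tested. DESeq2 gave 34 rises and 38 falls for vehicle against WT, 117 rises for IACS-70654 against vehicle and 145 rises for IACS-70654 against WT. Without the filter on low counts there were 100 rises and 148 falls for vehicle against WT and 390 rises for IACS-70654 against vehicle. A rule of at least 3 UMIs gave 91 rises for vehicle against WT and a share ratio of IACS-70654 to WT of 1.42, and one of at least 10 UMIs gave 30 falls for vehicle against WT.

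Without cycling cells there were 31 rises and 26 falls for vehicle against WT, 141 rises for IACS-70654 against vehicle and 138 rises and 314 falls for IACS-70654 against WT. Without cells with nonclassical genes there were 26 falls for vehicle against WT, 148 rises for IACS-70654 against vehicle and 331 falls for IACS-70654 against WT. Of the alternatives added after seeing the data, leaving out cells with genes of other cell types gave 37 falls for vehicle against WT, leaving out azurophil-high cells 37 rises and 38 falls, and cycling cells alone 45 falls. Share ratios were 0.544, 1.91 and 1.04 without B-lineage, T and NK cells in the denominator, 0.548 and 1.16 with Cd3d and Nkg7 not used, 0.553, 1.93 and 1.07 over cells of at least 3000 UMIs, an alternative added after seeing the data, and 1.82 and 1.04 after thinning these cells. The IACS-70654 to vehicle ratio was 0.990 for cycling cells when not thinned. For cells with nonclassical genes it was 0.583, and 0.965 when not thinned, 0.334 with 1 UMI more and 0.906 thinned to 4000 UMIs, so no difference was read from it.

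With each library left out in turn, vehicle against WT gave 22 to 64 rises and 27 to 73 falls, IACS-70654 against vehicle 138 to 287 and 304 to 476, and IACS-70654 against WT 192 to 248 and 410 to 501. The monocyte response was higher than that of neutrophils for 321 to 494 genes and lower for 486 to 908 with IACS-70654, and for 36 to 99 and 94 to 176 with vehicle. In c-Kit+ cells the ranges were 58 to 130 and 28 to 67 for vehicle against WT and 245 to 458 and 266 to 421 for IACS-70654 against vehicle.

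Of 102 results for single genes, all kept their direction and their side of the threshold with RLE size factors, with the replicate block, without the filter and with only the groups compared in the fit. Losses were most frequent without cycling cells (28), without vehicle library 1 (21), without cells with nonclassical genes (21), without azurophil-high cells (20), in cycling cells alone (19) and without vehicle library 2 (16). The sign turned for Ccl4 in vehicle against WT with at least 10 UMIs of the rule genes (0.25), for Ets1 in vehicle against WT (0.21) and Mcpt8 with IACS-70654 (0.88) without cells of other types, and, without azurophil-high cells, for Stfa3 in vehicle against WT (-0.034) and for Cx3cr1 (0.019) and Prtn3 (-0.10) with IACS-70654, Prtn3 being among the genes that chose those cells. Ciita, H2-Oa and Rsad2 lay under 20 CPM, where few UMIs set the precision.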

Other observations

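Of 97 tested genes of a published signature of myeloid-derived suppressor cells, 12 rose and none fell from WT to vehicle by edgeR, and 8 and none by DESeq2. At an unadjusted p under 0.05, 55 were higher and 6 lower, beside 1869 of all 11604 genes in either direction. The median was 0.22, beside 0.001 over all genes, of which 0.517% rose. In neutrophils of the same libraries 47 of 98 rose (median 0.49, beside 4.90% of all genes), and the response was lower in monocytes for 18 of 97 (1.56% of all genes). Neutrophil markers in the members were also higher with vehicle than in WT, and their part was not tested. Among the rises were Socs3, an inhibitor of cytokine signalling (log2 1.57; not called without WT library 2 or without either vehicle library, at adjusted p = 0.0195, 0.0451 and 0.0104, without cells with nonclassical genes other than Spn, or in cycling members alone), and Ier3, an immediate early gene (log2 0.70; not called in cycling members alone), whereas Lrg1 (log2 0.95; not called without vehicle library 1) was at 68.1 CPM in the members and 115.5 CPM in B cells with Ighd in vehicle, the level of free RNA. In the same list 6 genes rose and 10 fell with IACS-70654 against vehicle (median -0.13), beside 2.15% and 3.80% of all genes. Among 15 G1 cyclins and inhibitors of cyclin-dependent kinases, 1 rose and 2 fell, and Cdk6, a G1 kinase, rose by 0.61, a call lost without vehicle library 1 (0.44), with at least 10 UMIs of the rule genes (0.35), with the rule applied after thinning (0.18) and without azurophil-high cells (0.53, adjusted p = 0.0109). Il6st, which encodes the shared receptor subunit gp130, was at 102 and 115 CPM with vehicle and 64.5 and 62.3 CPM with IACS-70654 (log2 -0.75), but the difference was -0.29 without cycling cells (adjusted p = 0.232) and -0.39 without azurophil-high cells (adjusted p = 0.0605). Among nonclassical monocyte genes 3 of 11 fell, with Ace, angiotensin-converting enzyme, at 7.01 and 5.20 CPM with vehicle and 1.38 and 0.967 CPM with IACS-70654.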
